A study of Mus musculus with 12 samples.

Results

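The genes that encode the proteins of the cytosolic ribosome were examined in mouse liver after a chemical challenge to protein folding. Their members were all genes whose array symbol was Rpl or Rps followed by a number, with or without a closing a, l or x, together with Rplp0, Rplp1, Rplp2 and Rpsa. Of the 18193 genes that had a probe set (a group of oligonucleotides read as 1 value) carrying a single gene symbol, 46 were such members, 24 of the large subunit and 22 of the small subunit. Each gene was represented by its single-symbol probe set with the highest mean over the 12 arrays, and the rule used no comparison between groups. Levels are log2 signals, and because probe sets differ in brightness a level says nothing about which of several genes is the more abundant.

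The study asked how loss of ATF6a, a sensor of endoplasmic reticulum stress whose released fragment is a transcription factor, alters the liver's response to tunicamycin (TM), which blocks N-linked glycosylation so that glycoproteins misfold. Liver RNA of 3 wild-type and 3 Atf6a-/- animals given 1 mg/kg TM by intraperitoneal injection in 150 mM dextrose was compared with that of 3 wild-type and 3 Atf6a-/- animals given dextrose alone, the vehicle, each animal on 1 array. Livers were taken at 34 h by the titles and the protocol, although the source field of the labels reads 8 h. The animals were of variable age and sex, not given for each animal and were fasted for 4 h before the livers were taken. The labels name no promoter or cell type that would limit the loss of Atf6a to hepatocytes.

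The targeted gene itself, Atf6, separated the genotypes in vehicle livers but not after TM. On its brightest probe set it measured 8.54, 8.42 and 8.49 in wild-type vehicle, 6.88, 6.85 and 6.60 in Atf6a-/- vehicle, 9.30, 9.72 and 9.49 in wild-type TM and 9.60, 9.81 and 9.23 in Atf6a-/- TM. The vehicle groups did not overlap and the TM groups did, and on the other 2 probe sets of the gene every liver labelled Atf6a-/- TM was above every wild-type TM liver (8.80 to 8.89 against 8.05 to 8.45, and 8.97 to 9.11 against 7.36 to 7.97). Whether these probe sets lie inside the deleted part of the gene was not tested, so they do not check the genotype of the TM livers, and Atf6a-/- TM below means the livers labelled so.

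A ribosome is built from ribosomal RNA and one copy of nearly every ribosomal protein, so these genes are normally expressed in step. In mammals most of their mRNAs start with a tract of pyrimidines, the terminal oligopyrimidine or TOP motif, through which nutrient signaling by mTOR and LARP1 controls their translation and stability. During endoplasmic reticulum stress the kinase PERK slows initiation of translation, and liver, which makes most plasma proteins, carries a large pool of ribosomes.

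The members moved together with TM in both genotypes. In wild-type livers 14 of the 46 rose and 1 fell, with a median difference of 0.49 on the log2 scale, and in Atf6a-/- livers 35 rose and none fell (0 lower also at an unadjusted limma p under 0.05), with a median of 0.89. These medians are folds of 1.40 and 1.85, so the change per gene was modest and spread over most members. A call required an adjusted p under 0.05 in limma, with Benjamini-Hochberg adjustment over all 45037 probe sets tested, and a change over 1.5-fold. Among all 18193 genes, 3.45% were called higher and 3.86% lower in the wild-type response, and 15.2% higher and 12.8% lower in the Atf6a-/- response, with medians of −0.02 and −0.01. Most members are bright, and among the 1362 genes with a mean signal of at least 10 the shares called higher were 11.8% in the wild type and 28.4% in the knockout, with medians of −0.09 and −0.14; of the 34 members in that class, 32.4% and 82.4% were called higher.

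Against the wild-type vehicle mean, the median member deviated by −0.05, −0.05 and 0.10 in the 3 wild-type vehicle livers and by 0.02, 0.04 and −0.23 in the 3 Atf6a-/- vehicle livers. After TM it stood at 0.44, 0.63 and 0.40 in the wild type and at 0.74, 0.89 and 0.86 in Atf6a-/-. Every treated liver lay above every vehicle liver, and every Atf6a-/- TM liver above every wild-type TM liver. The spread of this median within groups was 0.11 (SD over the 4 groups of 3 animals). By gene, all 3 wild-type TM animals exceeded all 3 wild-type vehicle animals for 39 members, where 11.8% of all genes did so, and all 3 Atf6a-/- TM animals exceeded all 3 Atf6a-/- vehicle animals for 43 members, where 24.1% of all genes did so.

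**Figure D1:**
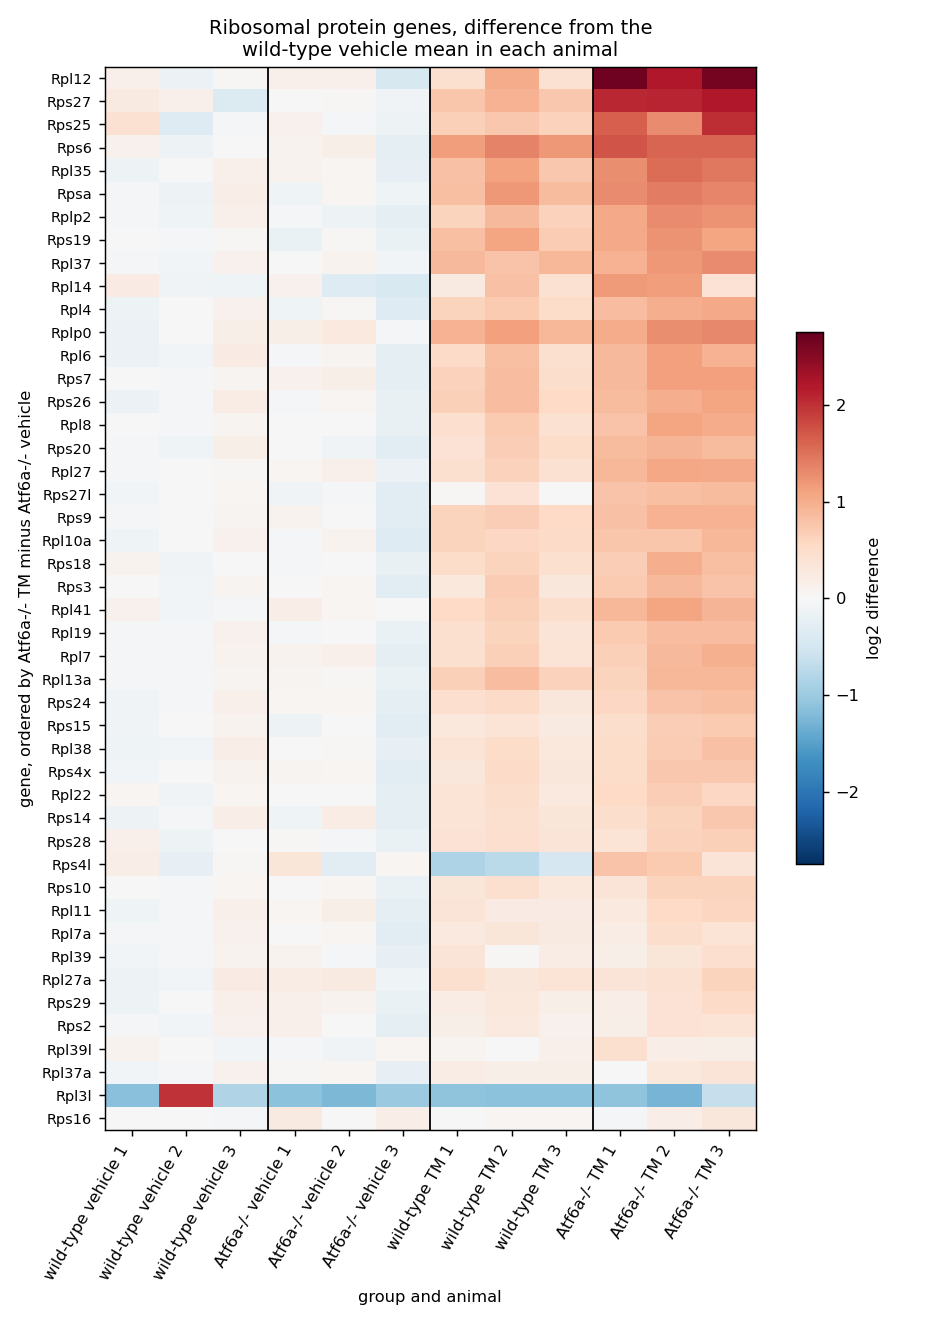
Log2 difference of each of the 46 members (rows, ordered by their Atf6a-/- response) from its wild-type vehicle mean in each of the 12 animals (columns, 3 per group). The TM columns are red for nearly every member and darker in Atf6a-/-; the exceptions are Rps4l, which is blue in wild-type TM, Rpl3l, which is high in 1 wild-type vehicle animal, and the faint rows at the bottom.

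Because arrays are scaled to a common distribution, such a shift is relative to the other genes on the array. The direction in both responses was kept under each of 5 other scalings tried, but its size was not: aligning the arrays on the bacterial spike-in controls gave median differences of 0.84 and 1.37 (all genes 0.33 and 0.46), and aligning them on Btf3 and Ppia, the reference genes that the study used for its PCR, gave 0.42 and 0.37 (all genes −0.10 and −0.53), with 36 of 46 members above 0 and 11 called higher in the knockout. The mean of Btf3 and Ppia itself was 11.86 and 11.85 in the wild-type and Atf6a-/- vehicle groups, 11.94 in wild-type TM and 12.37 in Atf6a-/- TM, and the spike-ins went from 9.35 in wild-type vehicle to 8.80 in Atf6a-/- TM. Btf3 is also described as carrying a TOP motif, and its own probe set rose 1.13 ± 0.13 (SE) in the knockout.

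The starts of the genes show the sequence context on which such control acts. RefSeq promoter windows of 300 bases (GRCm38.p6; 250 bases before the annotated start and 50 from the start on) were found for 40 of the 46 members, in 48 windows. Below, the 30 bases before and the 20 bases from the start on are given 5′ to 3′ on the gene's own strand, and capitals mark the longest unbroken run of C or T that touches the 5 bases on either side of the start. They were chosen after their values were seen, to show each combination of run and response. Responses here are those of the probe set that represents the gene. The first 4 have a run of at least 9 bases and a large response, and Rpsa and Rpl37 a short run and a large response. Rpl7a and Rpl38 have a long run and a smaller response, and Rpl37a and Rps2 a short run and a small response.
Rps6 (chr4:86857348-86857397, minus strand): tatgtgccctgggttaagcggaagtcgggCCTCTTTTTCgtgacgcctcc
Rps27 (chr3:90213629-90213678, minus strand): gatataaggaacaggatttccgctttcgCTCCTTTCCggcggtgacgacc
Rplp2 (chr7:141447621-141447670, plus strand): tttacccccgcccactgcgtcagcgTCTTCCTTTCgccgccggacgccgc
Rpl35 (chr2:39005112-39005161, minus strand): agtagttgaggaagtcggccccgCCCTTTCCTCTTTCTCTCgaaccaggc
Rpsa (chr9:120127736-120127785, plus strand): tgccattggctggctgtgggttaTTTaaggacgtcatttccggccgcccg
Rpl37 (chr15:5116583-5116632, plus strand): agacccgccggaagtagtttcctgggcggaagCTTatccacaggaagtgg
Rpl7a (chr2:26910777-26910826, plus strand): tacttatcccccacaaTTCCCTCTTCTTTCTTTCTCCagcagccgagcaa
Rpl38 (chr11:114668550-114668599, plus strand): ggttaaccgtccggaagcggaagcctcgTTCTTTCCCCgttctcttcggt
Rpl37a (chr1:72711230-72711279, plus strand): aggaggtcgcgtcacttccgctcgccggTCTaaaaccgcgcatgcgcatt
Rps2 (chr17:24720033-24720082, plus strand): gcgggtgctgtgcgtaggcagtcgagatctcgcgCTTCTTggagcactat

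A run of at least 8 pyrimidines at the start was present in 17 of the 48 member windows, or 35.4%, and in 9.72% of all 32851 windows. The run was 10 bases in Rps6, 9 in Rps27, 10 in Rplp2 and 18 in Rpl35, whose Atf6a-/- responses were 1.65, 2.15, 1.34 and 1.45. It was 3 bases in both Rpsa and Rpl37, with responses of 1.41 and 1.14, 4 in Rps25 (1.68) and 7 in Rpl12 (2.56). It was 21 bases in Rpl7a and 10 in Rpl38, with responses of 0.44 and 0.73, and 3 bases in Rpl37a and 6 in Rps2, with responses of 0.27 and 0.35. These responses are read on the probe set that represents each gene. On brighter shared probe sets the Atf6a-/- response was 0.73 for Rps6, 1.55 for Rps27, 0.92 for Rpl37 and 0.78 for Rps25. For Rpl12 and Rps2 it was 1.69 and 0.25, so the size of some of these responses depended on the probe set. Over the members with a window, the median Atf6a-/- response was 0.97 for the 17 genes with such a run and 0.88 for the 23 without, and the median wild-type responses were 0.52 and 0.44. An annotated start can differ by some bases from the start used in liver, so a short run in a window does not show that the mRNA lacks a tract.

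Other motifs were searched on both strands of the same 300 bases, and no motif contains another. The ETS-type motif CCGGAAG, which GABP can bind, was in 20 member windows (41.7%) and in 8.86% of all windows, and can be seen in the Rpl38 sequence above. The E-box CACGTG, a site of MYC and MAX, was in 5 member windows (10.4%, against 7.15%), and the ATF6-type element TGACGTG was in 1 (2.08%, against 2.01%). The ATF4-type element TGATGNAAT and the endoplasmic reticulum stress response element (CCAAT, any 9 bases, then CCACG) were in none of the member windows and in 0.965% and 0.119% of all windows. At shares this low, 48 member windows are too few for their absence to show a lack of these elements. A match is a description of letters in the window, not of binding.

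Among proteins of the small subunit, Rps6, the substrate of S6 kinase downstream of mTOR, had the largest wild-type response of the 46 on its own probe set, which is of middling brightness (mean 8.85). Its signal there was 8.25, 7.99 and 8.14 in the wild-type vehicle livers, 8.23, 8.28 and 7.87 in the Atf6a-/- vehicle livers, 9.28, 9.50 and 9.32 in wild-type TM and 9.85, 9.73 and 9.73 in Atf6a-/- TM. The vehicle groups overlapped, both TM groups stood clear of them, and the Atf6a-/- TM animals stood clear of the wild-type TM animals. Rps6 rose 2.36-fold in the wild type (log2 difference 1.24 ± 0.12 SE, limma adjusted p = 0.00012) and 3.13-fold in Atf6a-/- (1.65 ± 0.12, limma adjusted p = 1.1e-06). On the brighter probe set that Rps6 shares with a pseudogene, at a mean of 13.8, the wild-type difference was 0.34 ± 0.12 (limma adjusted p = 0.15) and was not called, and the Atf6a-/- difference was 0.73 ± 0.12 (limma adjusted p = 0.00068) and was.

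Rpsa, the small subunit protein also known as the laminin receptor, measured 12.02, 11.94 and 12.26 in wild-type vehicle, 11.96, 12.13 and 11.95 in Atf6a-/- vehicle, 12.91, 13.26 and 12.95 in wild-type TM and 13.38, 13.48 and 13.42 in Atf6a-/- TM. The order of the groups was that of Rps6, again with overlap between the vehicle groups alone. It rose 1.95-fold in the wild type and 2.66-fold in Atf6a-/- (log2 differences 0.96 ± 0.12 and 1.41 ± 0.12 SE, limma adjusted p = 0.00049 and 2.8e-06). Rps19, needed for maturation of small subunit RNA and mutated in Diamond-Blackfan anemia, lay between 11.55 and 11.78 in the 6 vehicle livers, between 12.45 and 12.82 in wild-type TM and between 12.79 and 12.98 in Atf6a-/- TM. The TM groups of the 2 genotypes overlapped for this gene, whose responses were 0.87 ± 0.11 and 1.24 ± 0.11 (SE).

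The stalk of the large subunit, which recruits elongation factors, is built on Rplp0 with the acidic proteins Rplp1 and Rplp2. Rplp0 measured 12.53, 12.70 and 12.85 in wild-type vehicle, 12.86, 12.96 and 12.66 in Atf6a-/- vehicle, 13.64, 13.82 and 13.61 in wild-type TM and 13.72, 13.97 and 14.01 in Atf6a-/- TM. Its responses were nearly equal in the genotypes, 2.00-fold and 2.11-fold (log2 differences 1.00 ± 0.12 and 1.08 ± 0.12 SE, limma adjusted p = 0.00047 and 2.8e-05), and the TM groups overlapped. The interaction for Rplp0 was 0.08 ± 0.17 (SE). Rplp2 lay between 12.45 and 12.84 in the vehicle livers, between 13.32 and 13.59 in wild-type TM and between 13.74 and 14.00 in Atf6a-/- TM, with no overlap between the TM groups, and rose 1.64-fold and 2.53-fold (0.71 ± 0.11 and 1.34 ± 0.11 SE).

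Several large subunit members have known roles beyond general translation. Rpl13a, a protein that can leave the ribosome to silence inflammatory mRNAs, rose 0.71 ± 0.11 (SE) in the wild type and 0.84 ± 0.11 in Atf6a-/-. Rpl22 and Rpl38, which shape translation of selected developmental mRNAs, rose in Atf6a-/- by 0.67 ± 0.10 and 0.73 ± 0.12 but in the wild type had differences of 0.37 ± 0.10 and 0.39 ± 0.12 that missed the adjusted p. For Rpl11, which with Rpl5 binds Mdm2 when ribosome assembly is disturbed, the differences were 0.27 ± 0.13 and 0.49 ± 0.13 (limma adjusted p = 0.30 and 0.012), the second under 1.5-fold. Rpl35 and Rpl37 rose in both genotypes, Rpl35 by 0.89 ± 0.13 and 1.45 ± 0.13 and Rpl37 by 0.86 ± 0.10 and 1.14 ± 0.10. On the brighter probe set that Rpl37 shares with a copy, at a mean of 13.1, the differences were 0.56 ± 0.13 and 0.92 ± 0.13. There the wild-type difference was under 1.5-fold and was not called, and the Atf6a-/- difference was.

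By subunit, 7 of 24 large subunit and 7 of 22 small subunit members rose in the wild type, with medians of 0.49 and 0.44, and 17 of 24 and 18 of 22 rose in Atf6a-/-, with medians of 0.88 and 0.90. Without the fold threshold 23 members passed the adjusted p upward in the wild type (4.34% of all genes) and 41 in the knockout (19.1%). All 14 members that rose in the wild type also rose in Atf6a-/-, and 21 were called in Atf6a-/- only, a difference in calls that is not itself a test of the difference.

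The 11 members not called in the knockout were Rps10, Rpl11, Rpl7a, Rpl39, Rpl27a, Rps29, Rps2, Rpl39l, Rpl37a, Rpl3l and Rps16. Several of these were bright. On the probe set that represents it, Rpl37a measured 13.24, 13.29 and 13.44 in wild-type vehicle, 13.37, 13.37 and 13.10 in Atf6a-/- vehicle, 13.54, 13.48 and 13.50 in wild-type TM and 13.34, 13.63 and 13.68 in Atf6a-/- TM, and its knockout groups overlapped. On other single-symbol probe sets the Atf6a-/- differences were 0.79 and 0.57 for Rps29 and 0.57 and 0.675 for Rpl37a. For Rps10 they were 0.78, 0.85, 1.09, 0.82 and 0.47, and for Rpl27a −0.18. Of these, 0.57, 0.47 and −0.18 were not called and the others were. On brighter shared probe sets Rpl27a (0.89) was called, and Rpl39 (0.28), Rps2 (0.25) and Rps16 (0.48) were not. Across the 34 members with a mean above 12, the level and the Atf6a-/- response correlated at r = −0.50, a description over genes that share the arrays; the part of array saturation in it was not tested.

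**Figure D2:**
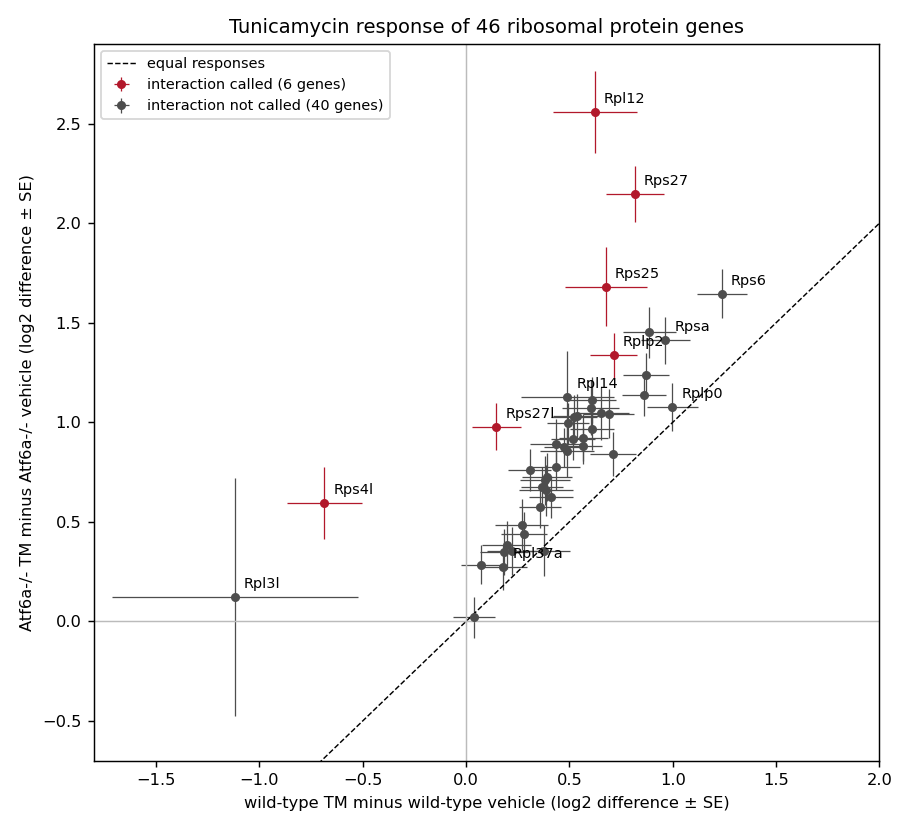
Tunicamycin response of each of the 46 members in wild-type (x axis) and Atf6a-/- livers (y axis), as log2 difference ± SE from the fit to 12 arrays; red points are the 6 members called in the interaction and the dashed line marks equal responses. With the scaling of the deposited values 44 of 46 points lie above the line, and 17 do when the arrays are aligned on Btf3 and Ppia.

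Without stress no difference between the genotypes was detected in these genes. After vehicle 0 members were called in either direction by limma (of all genes 0% were called higher and 0.0055% lower), and 0 passed at an unadjusted p under 0.05. The median difference, Atf6a-/- minus wild type, was −0.05, with 37 of 46 members below 0, and under the spike-in scaling the median turned to 0.03. Leaving out Rpl3l, which is described below, the members lay between −0.22 and 0.13.

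After TM the members were on the whole higher in Atf6a-/- than in wild-type livers, by a median of 0.30 with all 46 above 0, but this direction turned when the arrays were aligned on Btf3 and Ppia, where the median was −0.13 (all genes −0.43) and 37 members lay below 0. Few single genes passed: 5 members, or 10.9%, were called higher, where 11.3% of all genes were, but these calls came mainly from dim probe sets. Of the 34 members with a mean of at least 10, 1 (Rps27l), or 2.94%, was called, where 16.8% of genes that bright were, and of the 12 dimmer members 4 were. At adjusted p under 0.05 alone there were 14 (14.8% of all genes). All 3 Atf6a-/- TM animals exceeded all 3 wild-type TM animals for 29 members, where 19.5% of all genes did so. The 5 called were Rpl12, Rps4l, Rps27, Rps25 and Rps27l.

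The interaction, the Atf6a-/- response minus the wild-type response, had a median of 0.36 over the members (all genes 0.01) with the deposited scaling and of −0.08 (all genes −0.43) when aligned on Btf3 and Ppia. It passed for 6 members, all with the larger response in Atf6a-/-, where 7.56% of all genes were called higher, and for 7 members without the fold threshold (7.96% of all genes), the added gene being Rpl27 at 0.50 ± 0.14 (SE, limma adjusted p = 0.046). Here too the calls lay mainly on dim probe sets: 2 of the 34 members with a mean of at least 10 (5.88%) were called, a smaller share than the 11.2% of genes that bright, and 4 of the 12 dimmer ones. These 6 are described in turn, since their probe sets differ in what they can show.

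Rps27l, a paralog of Rps27 and a known p53 target, measured 12.28, 12.37 and 12.42 in wild-type vehicle, 12.25, 12.32 and 12.04 in Atf6a-/- vehicle, 12.40, 12.76 and 12.35 in wild-type TM and 13.13, 13.18 and 13.23 in Atf6a-/- TM. Only the Atf6a-/- TM group stood apart. The difference was 0.15 ± 0.12 (SE) in the wild type (limma adjusted p = 0.61) and 0.98 ± 0.12 in Atf6a-/- (limma adjusted p = 4.8e-05), and the interaction was 0.83 ± 0.17 (limma adjusted p = 0.0076). Its other 2 single-symbol probe sets gave interactions of 0.78 and 0.60 (limma adjusted p = 0.016 and 0.023). In a list of 14 genes of the p53 response and its regulators, 7 rose and 2 fell in Atf6a-/-. In the wild type 1 rose and 1 fell. The Atf6a-/- differences in the list ran from −2.08 to 5.71, with a median of 0.98. The largest was that of Cdkn1a, a cell cycle inhibitor, at 5.71 ± 0.70, and Mdm2 rose 1.37 ± 0.22. Among all genes 15.2% were called higher and 12.8% lower in the Atf6a-/- response. Whether p53 acted on Rps27l was not tested.

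Rps4l, a gene related to the X-linked Rps4x, was the one member that fell in the wild type. It measured 9.02, 8.62 and 8.88 in wild-type vehicle, 9.18, 8.53 and 8.88 in Atf6a-/- vehicle, 7.98, 8.10 and 8.37 in wild-type TM and 9.62, 9.56 and 9.19 in Atf6a-/- TM. The wild-type TM animals lay below all others and the Atf6a-/- TM animals above all others. Its wild-type difference was −0.69 ± 0.18 (SE, limma adjusted p = 0.043) and its Atf6a-/- difference 0.60 ± 0.18 (limma adjusted p = 0.027), each near the threshold, while the interaction was 1.28 ± 0.26 (limma adjusted p = 0.0073). The wild-type call was lost on leaving out wild-type vehicle animal 1 or 3, wild-type TM animal 1 or 2, Atf6a-/- vehicle animal 3 or Atf6a-/- TM animal 1 or 2 (differences −0.60, −0.66, −0.60, −0.66, −0.69, −0.69 and −0.69, in that order), and the Atf6a-/- call on leaving out Atf6a-/- TM animal 1 or 2 or Atf6a-/- vehicle animal 2 or 3 (0.51, 0.54, 0.43 and 0.61). Rps4x itself lay between 12.40 and 12.79 in vehicle livers, between 12.99 and 13.21 in wild-type TM and between 13.18 and 13.43 in Atf6a-/- TM, and rose in Atf6a-/- by 0.71 ± 0.12.

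Rpl12, a large subunit protein at the base of the stalk, had the largest interaction, on a dim probe set. Its signal was 5.37, 5.06 and 5.26 in wild-type vehicle, 5.38, 5.36 and 4.80 in Atf6a-/- vehicle, 5.67, 6.26 and 5.64 in wild-type TM and 7.92, 7.43 and 7.86 in Atf6a-/- TM. The response was 0.62 ± 0.21 (SE) in the wild type (limma adjusted p = 0.10) and 2.56 ± 0.21 in Atf6a-/- (limma adjusted p = 2.0e-06), and the interaction 1.93 ± 0.29 (limma adjusted p = 0.0014). Rpl12 also has probe sets shared with near-identical copies, and the brightest of these measured 11.63, 12.12 and 12.32, then 12.04, 12.25 and 11.89, then 13.00, 13.47 and 13.06, then 13.56, 13.79 and 13.89 in the 4 groups in the same order. On it the responses were 1.15 ± 0.18 and 1.69 ± 0.18 and the interaction 0.53 ± 0.26 (limma adjusted p = 0.27), so the genotype difference of the dim probe set was not matched on the bright one.

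Rps27 and Rps25 showed the same split. Rps27, a zinc finger protein of the small subunit, measured 7.36, 7.25 and 6.76 in wild-type vehicle, 7.11, 7.15 and 7.04 in Atf6a-/- vehicle, 7.88, 8.09 and 7.85 in wild-type TM and 9.19, 9.23 and 9.32 in Atf6a-/- TM on its own probe set. The interaction there was 1.33 ± 0.20 (SE, limma adjusted p = 0.0013). On the probe set shared with the copy Rps27rt, at a mean of 12.3, it was 0.53 ± 0.15 (limma adjusted p = 0.048), with responses of 1.01 ± 0.11 and 1.55 ± 0.11, so that the sign was the same and the size under 1.5-fold. For Rps25, also of the small subunit, the single-symbol probe set at a mean of 6.53 gave responses of 0.68 ± 0.20 and 1.68 ± 0.20 and an interaction of 1.01 ± 0.28 (limma adjusted p = 0.042), and the shared probe set at 13.0 gave 0.50 ± 0.12, 0.78 ± 0.12 and 0.28 ± 0.17 (limma adjusted p = 0.42). The Rps25 interaction also lost its call on leaving out Atf6a-/- TM animal 1 or 3, any Atf6a-/- vehicle animal, wild-type TM animal 1 or 3 or wild-type vehicle animal 1 or 3, with values of 0.80 to 1.08.

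The sixth, Rplp2, is bright, at a mean of 13.1, and its interaction was smaller, 0.62 ± 0.16 (SE, limma adjusted p = 0.027). It lost the call on leaving out Atf6a-/- TM animal 2 or 3, Atf6a-/- vehicle animal 2 or 3, wild-type TM animal 1 or 3 or wild-type vehicle animal 3, with values of 0.55 to 0.63. Under the alignment on Btf3 and Ppia the interactions of Rpl12 and Rps27 remained called and those of Rps4l, Rps27l, Rps25 and Rplp2 did not, with all 6 above 0.

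**Figure D3:**
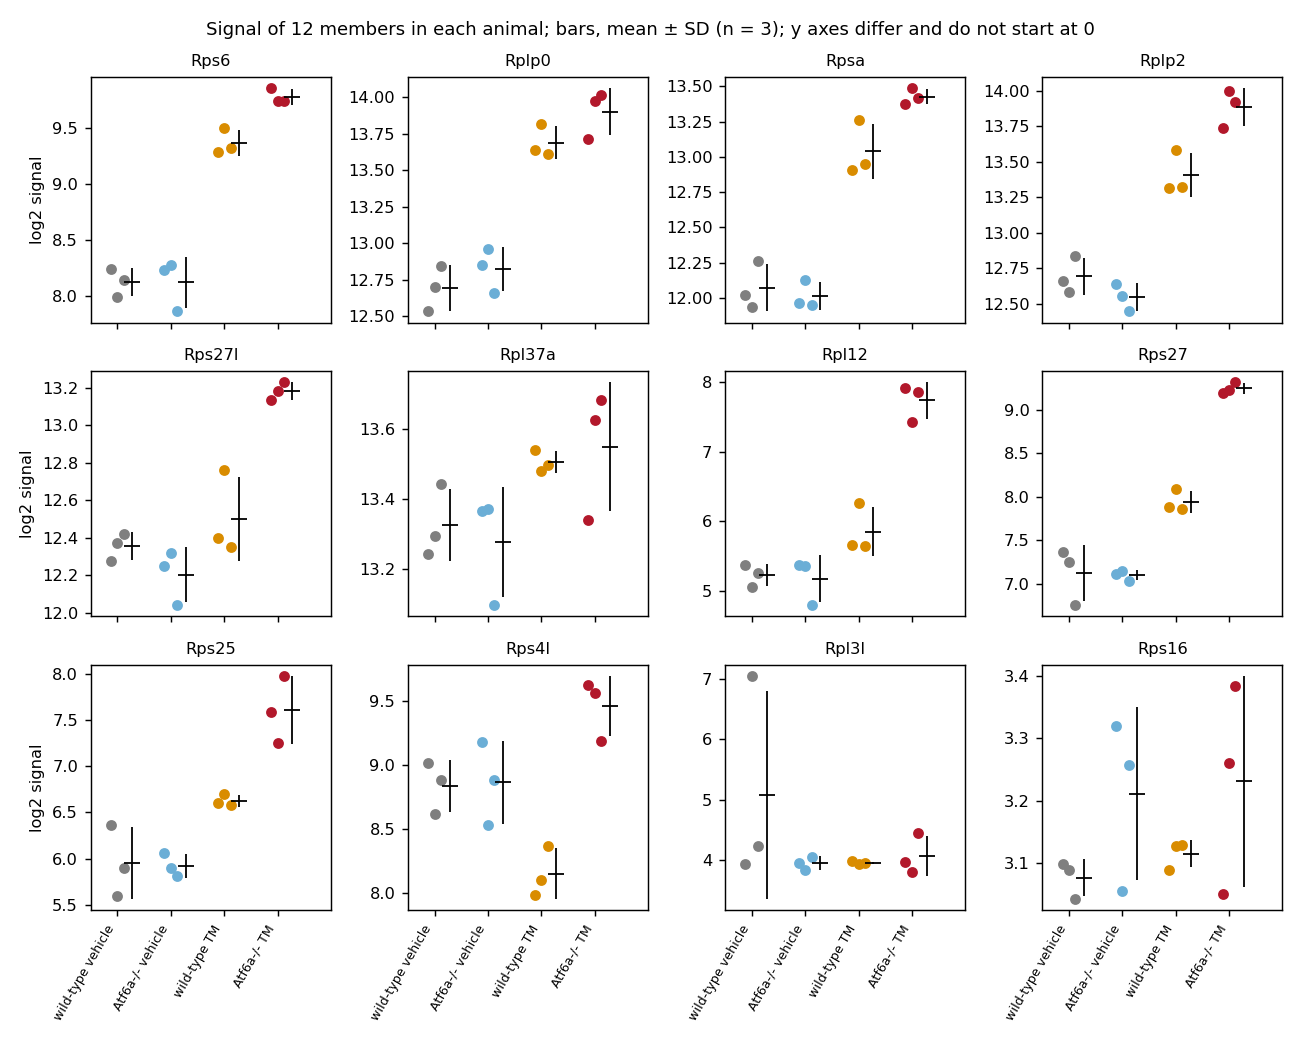
Log2 signal of 12 members in each of the 12 animals (points, 3 per group) with the group mean ± SD (bars, n = 3); the y axes differ between panels and do not start at 0. Rps6, Rplp0, Rpsa and Rplp2 step up in both TM groups, Rps27l stands apart in Atf6a-/- TM alone, Rps4l falls in wild-type TM and lies highest in Atf6a-/- TM, Rpl3l is high in 1 wild-type vehicle animal, and Rps16 stays between 3.04 and 3.38.

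Ribosomal protein genes have many processed copies in the genome, and a probe set that matches several of them carries several symbols. RefSeq lists 81 protein-coding symbols that match the rule, 36 of them had no single-symbol probe set on this array, and 28 ribosomal genes were found on shared probe sets only. There were 110 shared probe sets. On them 39 rose in the wild type and 81 in Atf6a-/- with none lower (at an unadjusted limma p under 0.05, 1 and 2 were lower), at medians of 0.50 and 0.84. The brightest shared probe sets of the 28 genes were 27 different ones, since Rpl32 and Rpl32l are listed on the same. Of these 27, 10 rose in the wild type and 24 in the knockout, and 0 interactions were called by limma (17 were higher at an unadjusted p under 0.05). Rplp1, the partner of Rplp2, rose 0.61 ± 0.12 and 0.81 ± 0.12 (SE) on the probe set it shares with a copy. Rpl5, which joins Rpl11 on Mdm2, had differences of 0.40 ± 0.12 (limma adjusted p = 0.081) and 0.86 ± 0.12 (limma adjusted p = 0.00016), Rpl3, at the peptidyl transferase center, 0.55 ± 0.15 (limma adjusted p = 0.058) and 1.19 ± 0.15 (limma adjusted p = 8.1e-05), and Rpl10, a late-joining protein, 0.47 ± 0.12, under 1.5-fold, and 0.78 ± 0.12, which was called. Of the 12 members whose own probe set had a mean below 10, 9 had a brighter shared probe set.

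A dim probe set did not always show the larger change. Rps16, which binds near the decoding center, was read by its own probe set at 3.04 to 3.38 in all 12 livers, below the highest array median of 4.71, and the difference there was 0.02 ± 0.10 (SE) in Atf6a-/-, whereas the shared probe set at 13.8 gave 0.48 ± 0.13 (limma adjusted p = 0.014), which is under 1.5-fold. For Rpl14 the shared probe set, at 12.2, gave larger ones, 0.80 ± 0.13 and 1.41 ± 0.13 against 0.49 ± 0.23 and 1.13 ± 0.23. The other 54 single-symbol probe sets of the members gave 18 higher in the wild type and 36 higher in Atf6a-/- with none lower (0 and 2 at an unadjusted limma p under 0.05). Of the 19 members with several probe sets above the highest array median, the dimmest changed more than the brightest in 13 for the Atf6a-/- response and in 11 for the wild-type response. Rpl13a is an example, at 0.71 and 0.84 on the brightest and 1.65 and 1.65 on the dimmest, and Rpl22 a counterexample, at 0.67 on the brightest and −0.50 on the dimmest in Atf6a-/-.

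**Figure D4:**
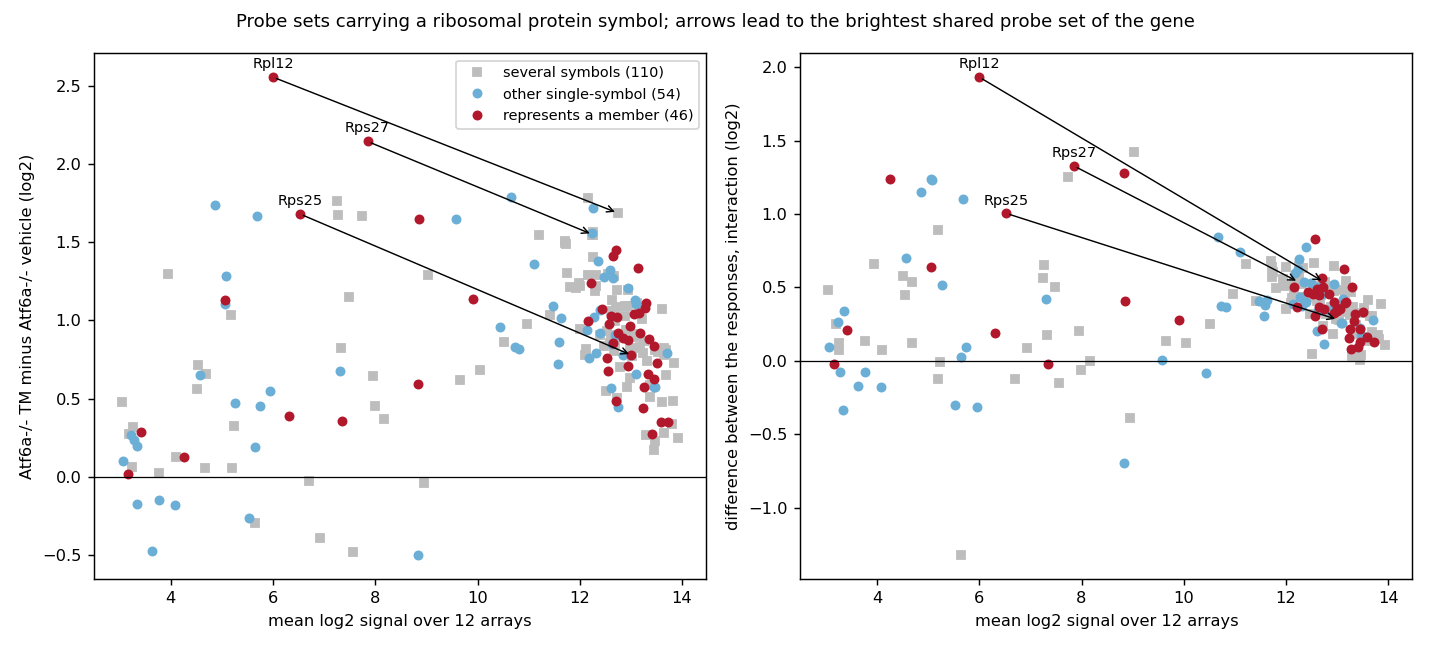
Log2 difference against mean log2 signal over 12 arrays for the probe sets that carry a ribosomal protein symbol: 46 that represent a member (red), 54 other single-symbol ones (blue) and 110 with several symbols (gray squares). The left panel is the Atf6a-/- response and the right panel the interaction with the deposited scaling, which is lower for all probe sets alike when aligned on Btf3 and Ppia, with a member median of −0.08; arrows lead from the probe set of Rpl12, Rps27 and Rps25 to the brightest shared one of that gene, at 0.53, 0.53 and 0.28 in the right panel.

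Members with restricted expression stood outside the common pattern. Rpl3l, the form of Rpl3 found in heart and skeletal muscle, measured 3.93, 7.05 and 4.24 in wild-type vehicle and between 3.81 and 4.44 in the other 9 livers. The muscle transcripts Ckm and Acta1, looked up after this value was seen, were 12.4 and 13.2 in that same animal and 5.77 and 6.26 in wild-type vehicle animal 3. They were also raised in wild-type TM animal 2 (8.09 and 9.46) and in Atf6a-/- TM animals 1 (7.40 and 9.07) and 3 (9.07 and 10.6), where Rpl3l was 3.94, 3.97 and 4.44. The Rpl3l difference in the wild type was −1.12 ± 0.60 (SE, limma adjusted p = 0.37) with this animal and −0.13 without it; the part of muscle RNA in it was not tested. Rpl39l, a form of Rpl39 known from testis, stayed between 3.23 and 3.77, below the highest array median, and Rpl39 lay between 5.96 and 6.65 on its own probe set, with differences of 0.20 ± 0.12 and 0.38 ± 0.12, the second at limma adjusted p = 0.031 and under 1.5-fold.

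Likeness of pattern over the 12 arrays was measured as the Pearson correlation of each member with the mean of all 46, which includes the member itself. The 12 arrays span the 4 groups, so r carries the group differences given above and is no separate sign of coordination. For 36 members r was above 0.9, led by Rpl8 (0.995), Rpl19 (0.995), Rpl35 (0.994), Rpl27 (0.993) and Rplp2 (0.991). The share of all genes above 0.9 was not counted. For 3 it was below 0.5, namely Rps4l (0.27), Rps16 (0.26) and Rpl3l (−0.23).

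Other genes that make and use ribosomes were counted in the same way, list by list. Of 7 proteins outside the rule that belong to or act on a subunit, 0 rose in the wild type by limma (4 at an unadjusted p under 0.05) and 5 rose in Atf6a-/-, led by Rpl22l1, a paralog of Rpl22, at 1.89 ± 0.30 (SE). Of 17 elongation factors and other transcripts described as TOP mRNAs, 6 rose in the wild type and 11 in Atf6a-/-, with medians of 0.46 and 0.78. Among them were Gas5 and Snhg1, spliced TOP RNAs that host small nucleolar RNAs, at 1.91 ± 0.30 and 2.25 ± 0.58 in the wild type and 3.40 ± 0.30 and 3.40 ± 0.58 in the knockout. Eef1b2, an exchange factor of elongation, rose 0.87 ± 0.14 in the wild type and was also called in the knockout, and Eef1a1, Tpt1 and Eif4b had Atf6a-/- differences of 0.19 ± 0.12, 0.18 ± 0.11 and −0.01 ± 0.11 that did not pass.

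The machinery that assembles ribosomes was called mainly in the knockout. Of 103 ribosome biogenesis factors, 8 rose and 1 fell in the wild type, with a median of 0.24, and 87 rose and 2 fell in Atf6a-/-, with a median of 1.33; the interaction was called higher for 65 and lower for 1, with a median of 1.09 under the deposited scaling. The largest Atf6a-/- rises were Gar1 at 3.80 ± 0.36 (SE) and Nop58 at 3.64 ± 0.40, both parts of small nucleolar particles that modify ribosomal RNA, and the falls were Rcl1 at −1.14 ± 0.15 and Utp6 at −1.09 ± 0.15. Of 20 genes for transcription of ribosomal RNA by RNA polymerase I, 0 were called in the wild type and 14 rose in Atf6a-/- (medians 0.21 and 1.01), with Polr1e at 2.45 ± 0.25 and Nolc1 at 2.01 ± 0.19. At an unadjusted limma p under 0.05, 5 of these 20 were higher in the wild type.

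Translation initiation factors, 47 genes, had 7 higher in the wild type and 32 higher and 2 lower in Atf6a-/-, with medians of 0.29 and 0.89. Eif6, which keeps the large subunit apart from the small one, rose 2.52 ± 0.29 (SE) in Atf6a-/-, and Eif1ad 2.32 ± 0.15. The ribosomal proteins of mitochondria, encoded by 76 nuclear genes whose products make a separate ribosome, had 9 higher and 2 lower in the wild type and 34 higher and 5 lower in Atf6a-/-, with medians of 0.07 and 0.38. They ranged from Mrps18b at 2.65 ± 0.16 to Mrpl49 at −1.88 ± 0.18 in Atf6a-/-, whereas the cytosolic members ranged from 0.02 (Rps16) to 2.56 (Rpl12). Of 22 genes for ribosome quality control and ribosome-bound chaperones, 5 rose in the wild type and 15 in Atf6a-/-, among them Gtpbp2 and Ufm1 in both.

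**Figure D5:**
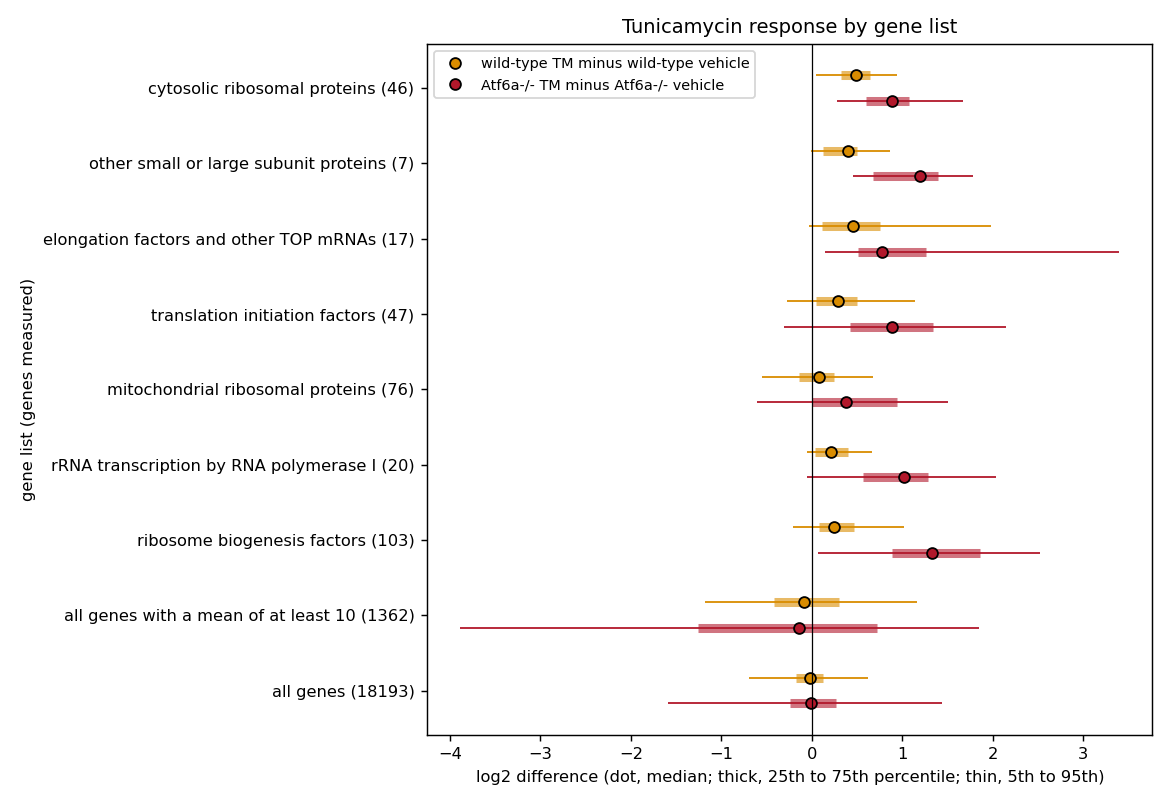
Log2 difference after TM in the wild type (orange) and Atf6a-/- (red) for 9 gene lists, with the number of genes measured in parentheses; dots are medians, thick lines run from the 25th to the 75th and thin lines from the 5th to the 95th percentile. The cytosolic ribosomal proteins lie at medians of 0.49 and 0.89, and ribosome biogenesis factors go from 0.24 to 1.33; aligned on Btf3 and Ppia, the Atf6a-/- medians of members and of all genes become 0.37 and −0.53.

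Of 30 genes that control ribosomal protein mRNA in response to nutrients and stress, 4 rose in the wild type, and 8 rose and 6 fell in Atf6a-/-. Trib3, a pseudokinase induced by ATF4, rose 3.42 ± 0.35 (SE) and 4.31 ± 0.35, Myc, an activator of ribosome genes, 1.66 ± 0.33 and 3.60 ± 0.33, and Ppp1r15a, which restores initiation after PERK, 1.24 ± 0.33 and 3.73 ± 0.33. Eif4ebp1, an inhibitor of initiation under mTOR, rose 2.15 ± 0.23 in Atf6a-/-, Tsc1, a brake on mTOR, fell by 1.02, and Larp1, which binds TOP motifs, had a difference of 0.46 ± 0.13, under 1.5-fold.

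RNA quality and markers of cell types moved with the groups as well. The difference between the 3′ and 5′ control probe sets of actin, which grows with RNA degradation, averaged 0.93 in Atf6a-/- TM, against 1.17 in wild-type TM and 1.17 and 1.14 in the vehicle livers of wild-type and Atf6a-/- animals. The control probe sets for 18S ribosomal RNA, the RNA of the small subunit, averaged 7.10 and 6.90 in the wild-type and Atf6a-/- vehicle livers. After TM they averaged 6.58 and 6.55, and the ranges over animals, 6.56 to 7.46 in vehicle and 6.34 to 6.78 after TM, overlap. The bacterial spike-in controls were lower after TM too, at 9.35 in wild-type vehicle and 8.80 in Atf6a-/- TM. Whether the amount of ribosomal RNA changed was not tested. Of 16 hepatocyte markers 2 fell in the wild type and 12 in Atf6a-/-, and their mean level per animal was 13.9 to 14.2 in the vehicle groups, 13.6 to 14.0 in wild-type TM and 12.0 to 12.4 in Atf6a-/- TM. Of 9 neutrophil markers 1 rose in the wild type and 2 in Atf6a-/- (S100a8 and S100a9), their mean level going from 4.76 to 5.04 in vehicle to 5.45 to 6.07 in Atf6a-/- TM, with 4 of the 9 below the highest array median. Of 14 Kupffer cell markers 1 rose and 5 fell in the wild type, and 2 rose and 8 fell in Atf6a-/-. Of 15 cell division genes 1 rose (Pcna) in Atf6a-/- and 1 fell (Cdk1) in both genotypes. In whole liver, fewer cells of a type and less RNA per cell cannot be told apart, and the part of these shifts in the ribosomal protein values was not tested.

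Over all genes the first principal component held 68.3% of the variance; wild-type TM animal 2 lay at 29.5 on it, the other wild-type TM animals at −12.9 and −11.9, and the Atf6a-/- TM animals at 114 to 120. Leaving out any 1 animal gave median responses of the members of 0.41 to 0.53 in the wild type and 0.81 to 0.94 in Atf6a-/-.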

How the data were processed

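Liver RNA of 12 mice, 3 in each of 4 groups, was hybridized to 1 Affymetrix array per animal. The authors deposited log2 signals made with RMA in the affy package, which corrects background, quantile normalizes the arrays and summarizes probes, per the labels; versions are not given in the sources used here. RMA forces a common distribution on the arrays, so a shift shared by most genes is not seen.

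The 64 control probe sets were left out of the tests, and 45037 remained. limma 3.58.1 in R 4.3.3 was fitted with 1 mean per group over all 12 arrays, and the 2 tunicamycin responses, the 2 genotype differences and their interaction were tested with Benjamini-Hochberg adjustment over all probe sets. A call needed an adjusted p under 0.05 and over 1.5-fold. Genes were named from the platform annotation: 34945 probe sets carried 1 symbol, 932 several and 9160 none. The code was tested on simulated data. The members and gene lists were chosen with earlier results of these data known. The text named the 8 largest called rises and falls per comparison and a list of members with known roles. From the other lists, some of the largest called changes and further genes were named, not all of them called. The 2 largest rises and falls were not always given. Alternatives were other scalings (quantile, cyclic loess, array medians, spike-ins, Btf3 and Ppia), tests, probe set choices, a filter on dim probe sets, a covariate, a replicate block and leaving out each animal. The counts on probe sets shared by several symbols, the muscle transcripts, the Atf6 values and the counts at an unadjusted p were added after seeing the data. The probe set used for Ppia carries a second symbol. The number of arrays, 3 per group, limits the precision.

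The replicate numbers did not pair the animals: same-numbered animals had correlations of their deviations from the group means between −0.18 and 0.37.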

Additional observations from a re-analysis of the deposited data

Results flagged for a closer look

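For 6 members the response to TM differed between the genotypes by the limma interaction, with adjusted p from 0.0013 to 0.042. The differences, Atf6a-/- response minus wild-type response on the log2 scale, were 1.93 for Rpl12, 1.33 for Rps27, 1.28 for Rps4l, 1.01 for Rps25, 0.83 for Rps27l and 0.62 for Rplp2. For Rpl12, Rps27 and Rps25 the brightest probe set shared with copies gave 0.53, 0.53 and 0.28.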

How the results depend on the processing

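The median TM responses of both genotypes stayed above 0 under every alternative run, while the medians of the genotype comparisons and the interaction did not keep their sign. With the arrays aligned on Btf3 and Ppia the medians were 0.37 (Atf6a-/- response), −0.13 (genotypes after TM) and −0.08 (interaction), and 11, 3 and 2 members were called higher. With spike-in scaling the medians were 0.84 (wild-type response), 1.37, 0.50 and 0.49, with 37 members higher in the wild type and 14 between genotypes after TM. Cyclic loess gave 0.76 for the Atf6a-/- response. Averaging the probe sets of a gene called 8 between genotypes after TM and 10 in the interaction. Without a fold threshold 23 rose in the wild type and 14 differed between genotypes. The methods' t-test on the same values was also counted without a fold threshold, so its counts do not compare directly with the 14 and 5 calls. It gave 37 in the wild type and 25 between genotypes at an unadjusted p under 0.05, and 0 and 1 after Benjamini-Hochberg. The lower call of Rps4l was absent (0 members) with Xist as covariate, the adjusted t-test, Btf3 and Ppia, and spike-ins, and ranged from 0 to 1 on leaving out 1 animal. Leaving out 1 animal gave 10 to 17 members higher in the wild type, 31 to 36 in Atf6a-/-, 5 to 6 between genotypes and 4 to 7 in the interaction. A replicate block left the counts at 14, 35, 5 and 6. Of 2411 values of named members under alternatives, 71 lost and 38 gained a call and 0 were called in the opposite direction. A change of sign without a call is not in that count. With the arrays aligned on Btf3 and Ppia, 37 members lay below 0 between genotypes after TM and 29 in the interaction. The cause of these shifts was not tested.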
